A study of Rattus norvegicus with 10 samples.

Results

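Indomethacin is a non-steroidal anti-inflammatory drug (NSAID), and the gastric mucosa of rats given it by mouth was set against the mucosa of control rats. The comparison used 4 of the 10 libraries of the series, chosen by their labels alone: 2 labelled indomethacin and 2 labelled control. All were RNA-seq libraries of gastric mucosa from Sprague Dawley rats, with the cell type labelled as epithelial cells. The indomethacin rats received 48 mg/kg and their tissue was taken 4 h later. The labels name no treatment, vehicle or time for the controls, and no age for either group. The other 6 libraries entered the same statistical fit, with 2 libraries each. They were aspirin (400 mg/kg), diclofenac (75 mg/kg), and indomethacin (48 mg/kg) preceded by honokiol (40 mg/kg, into the peritoneum). The time label of aspirin and diclofenac is 4 h. That of the honokiol libraries is 0.5 h, read here as the lead of honokiol before indomethacin, so no time of tissue collection is known for them. These 6 libraries are described only beside the features that indomethacin changed.

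NSAIDs inhibit the cyclooxygenases, the enzymes that turn arachidonic acid into prostaglandins. In the stomach, prostaglandins maintain the secretion of mucus and bicarbonate, the flow of blood through the mucosa and the renewal of its epithelium. Loss of these functions is the textbook route by which NSAIDs damage the mucosa, and indomethacin given to rats is a standard model of such damage.

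Genes cannot be named here. The deposited tables give Ensembl identifiers with exon coordinates and no symbols, and 0 of the 32623 identifiers matched the table of gene symbols at hand. Each feature is therefore described by its chromosome, start and end as deposited, its number of distinct exons and its summed exon length. The genome build behind them was not given in the sources used here. For the same reason the lists of pathway genes and cell type markers could not be applied, so the tissue and cell type labels were not checked against markers, and no promoter or protein sequence could be tied to a feature. In bulk tissue, a change in the number of cells of a type cannot be told apart from a change in RNA per cell.

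The 4 libraries held 32198888 to 43608370 counts, within the 23892226 to 44977459 of the whole series. The replicates correlated across features in log2 CPM at r = 0.963 for control and 0.973 for indomethacin, and they differed by far more than counting noise, with a chi-square per degree of freedom of 104.8 and 135.7. Features of the mitochondrial genome took 35.09% and 36.17% of the counts in the control libraries, and 32.41% and 21.7% in the indomethacin libraries. Most of these counts fell on 1 feature, at 1094-2664 of that genome. It held 10101618 and 9643380 counts in control and 11908048 and 5855481 with indomethacin. The replicates of each group also differed in reads of the Y chromosome. Over 7 Y features, control replicates 1 and 2 held 3582 and 1 counts, and indomethacin replicates 1 and 2 held 4438 and 2. Each group thus had 1 library with Y reads and 1 without, which a single animal would not give, but nothing in the labels says from how many animals a library was made. The p-values below rest on the spread between libraries within groups, estimated from all 10 libraries in 1 fit and not from these 4 alone.

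The features called between indomethacin and control mucosa were mostly higher with indomethacin. Of 16346 features tested with edgeR's quasi-likelihood test, 127 (0.777%) were called, meaning a Benjamini-Hochberg adjusted p under 0.05. Of these, 123 (0.752%) were higher and 4 (0.0245%) were lower with indomethacin. The low-count filter let features low in control alone enter through any drug group, and features high in control alone only through control. The part of this in the split was not tested. The fitted log2 fold changes of the 123 ranged from 0.91 to 9.53 with a median of 2.57, against a median of -0.02 over all tested features. Of the 123, 23 rose by a log2 fold change of 4 (16-fold) or more, 63 by 2 to 4, 35 by 1 to 2, and 2 by less than 1. At an unadjusted p under 0.05 there were 1151 features higher and 463 lower, and at an adjusted p under 0.1 there were 222 and 16. The 2 control libraries weighed most on these counts. Leaving out control replicate 1, the same test called 20 higher and 1 lower. Leaving out control replicate 2 it called 1 higher and 0 lower, with 1773 features at an unadjusted p under 0.05, and leaving out indomethacin replicate 2 it called 51 and 1. Without the first or the second library of honokiol plus indomethacin it called 110 or 109 higher and 0 lower, and without the first or the second diclofenac library 195 or 186 higher.

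**Figure D1:**
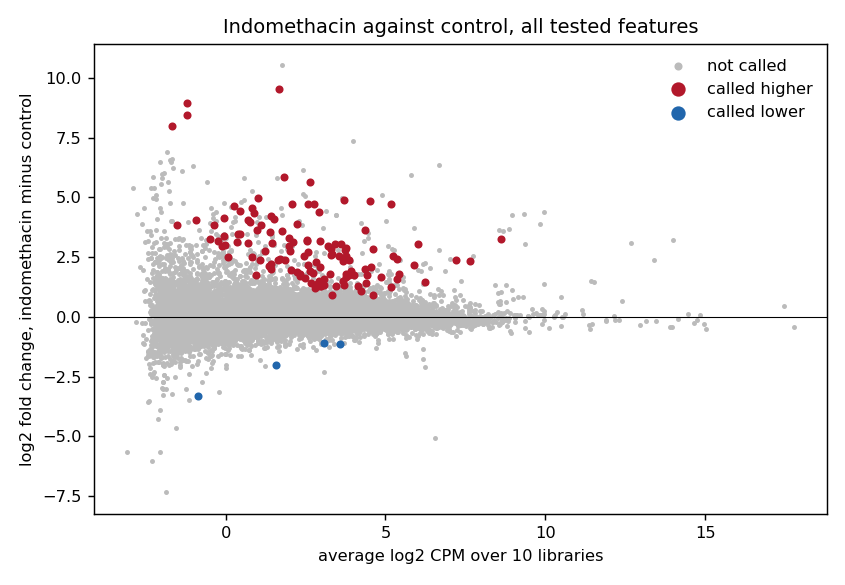
Log2 fold change of indomethacin minus control (vertical axis) against the average log2 CPM over 10 libraries (horizontal axis), 1 point for each of the 16346 tested features. The 123 features called higher (red) reach 9.53, the 4 called lower (blue) lie below 0, and several grey points with large changes were not called.

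In all 123 features called higher, both indomethacin libraries lay above both controls. That separation alone was common, since 3281 of the tested features (20.1%) had both indomethacin libraries above both controls and 2970 (18.2%) had both below. Levels are given as CPM, the counts of each library put on a common total with edgeR's TMM factors. The control mean was under 1 CPM for 54 of the 123, between 1 and 10 CPM for 58, and over 10 CPM for 11. Indomethacin replicate 2 was the higher of the pair in 91 of the 123 and replicate 1 in 32.

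Among called features, the largest fitted change was that of ENSRNOG00000002843 on chr14:18860264-18862407 (4 exons), which had no count in either control library. It stood at 2.23 and 3.03 CPM in indomethacin replicates 1 and 2. With 3 counts taken as the floor for both controls together, it stood 54.4-fold over that floor, with a lower 95% limit of 47.1-fold for counting error only. The fitted log2 fold change of 9.53 ± 1.18 (SE, n = 2 libraries a group, adjusted p = 0.0093 by edgeR) depends for such a feature on the prior count used in the fit. A further called feature, ENSRNOG00000028616 on chr3:171213936-171219871 (10 exons), held 2 counts in the controls together and 152 in the indomethacin libraries. Its levels were 0.0316 and 0.0334 CPM in control and 2.82 and 1.31 CPM with indomethacin, a ratio of 62.6 with an exact 95% Poisson interval of 17.0 to 522. Like the limit above, this interval covers counting error only and not the spread between libraries. The groups were far apart in both features, although the second was more than 2-fold higher in indomethacin replicate 1 than in replicate 2.

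The other 3 features of this kind had no count in either control. A feature of 126 exons at chr10:53713938-53848347 stood at 2.43 and 1.08 CPM with indomethacin, 35.4-fold over the same floor (lower limit 29.6-fold). A pair of features on chromosome 7 with 6 exons and 789 nt each followed. They lay at 14821691-14828517 (1.45 and 1.002 CPM, 25.0-fold, lower limit 20.1-fold) and at 13881583-13887854 (0.948 and 0.873 CPM, 18.7-fold, lower limit 14.5-fold). The equal exon number and length of the pair are given as deposited, and how the counter treated reads with several matches was not given in the sources used here. The 126-exon feature and the one from 13881583 would not have passed the low-count filter without the libraries of indomethacin alone. A feature on chr15:33355947-33358138 held 2 counts in control and 38 with indomethacin, a ratio of 15.7 with an interval of 4.05 to 134, again for counting error only.

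Among called features averaging 1 log2 CPM or more, the 15 largest rises were ranked by fitted fold change, and the features of chromosomes 14 and 3 above were the largest. The third, at chr1:72635267-72643255 (7 exons), had nearly the same level in both indomethacin libraries. It stood at 0.0947 and 0.134 CPM in control and at 5.75 and 5.86 CPM with indomethacin, and its log2 fold change was 5.63 ± 0.57 (SE, adjusted p = 0.0032 by edgeR). A feature of a single exon at chr10:106975178-106976040 stood at 0.474 and 0.568 CPM in control and at 11.5 and 19.7 CPM with indomethacin (4.90 ± 0.47, adjusted p = 0.0032). These 2 rises had the smallest adjusted p of the 15, with close control values in both.

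Larger levels were reached by 2 further features. At chr18:27657628-27661429 (2 exons, 3130 nt) the control libraries stood at 0.916 and 1.44 CPM and the indomethacin libraries at 21.95 and 46.57 CPM, with a log2 fold change of 4.86 ± 0.55 (adjusted p = 0.0084 by edgeR). At chr12:22641104-22651482 (9 exons) the values were 2.15 and 1.14 CPM in control and 25.7 and 60.3 CPM with indomethacin (4.71 ± 0.69, adjusted p = 0.032). In both, indomethacin replicate 2 had more than 2 times the level of replicate 1, and both indomethacin libraries were far above both controls. The control values spread most for a 2-exon feature of 396 nt at chr17:31779334-31780120, with 0.0947 and 0.802 CPM, and for a 9-exon feature at chr13:89622632-89634419, with 0.537 and 0.0334 CPM. Their indomethacin libraries stood at 9.48 and 14.3 CPM and at 5.55 and 9.81 CPM.

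The remaining 7 of the 15 rose by log2 fold changes of 3.85 to 4.98. The largest of them lay at chr4:28947965-28953067, with 0.158 and 0.0334 CPM in control and 2.68 and 3.65 CPM with indomethacin. The next, at chr7:142905758-142920216, stood at 0.505 and 0.334 CPM in control and 6.64 and 15.4 CPM with indomethacin. The other 5 lay on chromosomes 14, 4, 13, 10 and 1, from 84482674, 163239849, 71179910, 69423086 and 220826560. The groups do not overlap in any of the 15, since this was a condition of their choice. Fewer of them were called when a library was left out: 2 without the first control library, 1 without the second, and 14 and 8 without the first and the second indomethacin library. Their direction was the same in every fit made, but these fits reuse the libraries that picked the features, so this is a description.

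**Figure D2:**
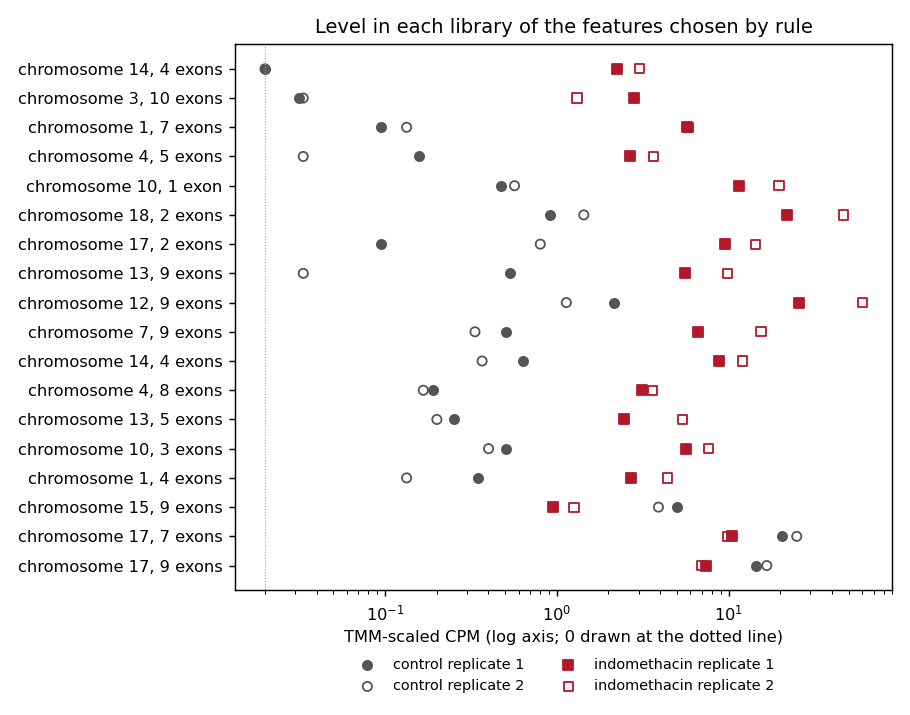
TMM-scaled CPM on a log axis in the control (grey circles) and indomethacin (red squares) libraries, for the 15 largest rises and the 3 falls among called features averaging 1 log2 CPM or more, labelled by chromosome and exon number. Rows were chosen for groups that do not overlap, and control values of 0 are drawn at the dotted line.

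Among the called features, 11 rose from a control mean of over 10 CPM, where counts were many in every library. A feature of 60 listed exons at chr3:109862117-109873466 stood at 43.3 and 49.9 CPM in control and at 270.2 and 631 CPM with indomethacin, a log2 fold change of 3.27 ± 0.45 (SE, adjusted p = 0.0093 by edgeR). The indomethacin replicates differed by more than 2-fold, and the lower of them was still over 5 times the higher control. A feature of a single exon at chr19:26092974-26094756 went from 12.1 and 10.4 CPM to 63.0 and 120.2 CPM (3.03 ± 0.49, adjusted p = 0.029). The third, at chr1:31734327-31777070 (17 exons), had close replicates, with 20.02 and 20.74 CPM in control and 115.3 and 98.8 CPM with indomethacin (2.39 ± 0.27, adjusted p = 0.0032).

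The other 8 of these 11 rose by 0.91 to 2.32 on the log2 scale. A feature of 48 exons at chr6:138054662-138662511 stood at 45.5 and 70.9 CPM in control and 299.8 and 282.8 CPM with indomethacin. At chr7:26946125-26984400 (20 exons) the indomethacin replicates were nearly equal, at 92.3 and 92.2 CPM, against 31.6 and 35.4 CPM in control (1.46 ± 0.21, adjusted p = 0.0093 by edgeR). The smallest called rise of all was at chr1:177048655-177173995 (29 exons), from 11.7 and 13.6 CPM to 23.8 and 23.5 CPM, a log2 fold change of 0.91 ± 0.18 (adjusted p = 0.039). The replicates of each group were closer to each other than the groups were, in this feature too.

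With indomethacin, 4 features were lower. ENSRNOG00000014398 at chr15:49069145-49177166 (9 exons) stood at 4.99 and 3.91 CPM in control and at 0.948 and 1.26 CPM with indomethacin, a log2 fold change of -2.01 ± 0.39 (SE, adjusted p = 0.041 by edgeR). The other 2 above the level of 1 log2 CPM lay on chromosome 17. ENSRNOG00000029792 at 14607442-14627937 (7 exons) went from 20.4 and 25.0 CPM to 10.5 and 9.92 CPM (-1.15 ± 0.23, adjusted p = 0.041). The feature at 15447716-15467359 (9 exons) went from 14.5 and 16.7 CPM to 7.42 and 6.99 CPM (-1.11 ± 0.22, adjusted p = 0.041). In both, the lower control had about 2 times the level of the higher indomethacin library. The fourth, at chr20:10727513-10729072 (2 exons), was low throughout, with 0.474 and 0.635 CPM in control and 0.0279 and 0.0771 CPM with indomethacin (-3.29 ± 0.65, adjusted p = 0.042). All 4 had adjusted p-values near the threshold. None of the first 3 was called when any 1 control or indomethacin library was left out, when either library with honokiol was left out, or with a term for Y reads in the model.

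Since each group held 1 library with Y reads and 1 without, the difference was also taken within each state. The log2 difference between replicates 1, which had Y reads, had a median of 2.33 over the 123 features called higher and ranged from 0.89 to 5.97. That between replicates 2, which had none, had a median of 2.79 and ranged from 0.79 to 6.77. Both differences had a median of 0 over all tested features. All 123 thus lay above 0 in each state, and the difference without Y reads was the larger in 92 of them. These are the features the test had picked from the same libraries, so their sign in each state is a description. With a term for Y reads in the model, 116 features were called higher and 0 lower, 101 of the 127 among them, and 1661 had an unadjusted p under 0.05.

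**Figure D3:**
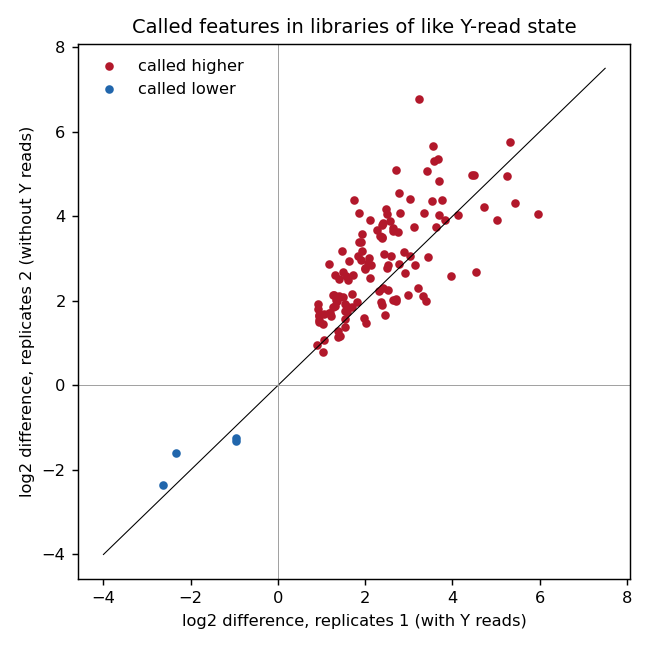
Log2 difference, indomethacin minus control, between the libraries without Y reads (vertical axis) and between those with Y reads (horizontal axis), 1 point per called feature. Points above the diagonal rose more in the libraries without Y reads, which holds for 92 of the 123 features called higher.

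The called features were spread over the genome. None of the 544 tested features of chromosome X, the 10 of Y and the 23 of the mitochondrial genome was called. Over all tested features 0.777% were called, so 0 of 10 and 0 of 23 are near the background. The count of 0 on chromosome X was not tested. Of the mitochondrial features, 3 had a log2 fold change above 0, and the median of all 23 was -0.32. The replicates were not alike in this. For the most abundant, at 1094-2664, the log2 difference was 0.058 between replicates 1 and -1.098 between replicates 2. For the feature at 3904-4942 it was 1.309 and -2.038, while the feature at 68-1025 was lower in both, by -0.624 and -0.32. Chromosomes 4, 7 and 6 had the largest shares of features called higher, at 1.521%, 1.518% and 1.302% against 0.752% over all. By structure, 12 of 1551 features with 1 exon were called higher, 15 of 1139 with 2, 8 of 899 with 3 and 88 of 12757 with 4 or more. The features called higher had a median of 6 exons and 2251 nt, against 9 exons and 2171.5 nt for all tested. These shares are counts without a test.

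In 11 pairs, called features lay within 500 kb of each other. The share of all tested features lying this close was not computed, so the count does not show clustering. The closest were 5.03 kb apart on chromosome 19, where a 5-exon feature from 11302125 rose from 3.82 and 3.24 CPM to 8.004 and 10.63 CPM, and a 3-exon feature from 11307967 rose from 1.64 and 1.67 CPM to 14.9 and 12.5 CPM. A pair 8.89 kb apart on chromosome 5 lay at 25339368-25341042 and 25349928-25353661. The first of these went from 0.221 and 0.0668 CPM to 2.90 and 4.14 CPM, and the second from 4.07 and 1.80 CPM to 21.6 and 20.9 CPM. The largest fitted rise among called features, on chromosome 14, had a called neighbour 11.01 kb away at 18848549-18849258, which stood at 0.442 and 0.267 CPM in control and 2.45 and 3.70 CPM with indomethacin. No tested feature in the span of these 3 pairs was left uncalled, nor in that of the pair from 80730499 on chromosome 1. In the other 7 pairs, 3 to 21 features of the span were tested and 2 called. Reads in overlapping or antisense features may be shared, since the counter's strand setting was not given in the sources used here.

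Several called features were short and lay in long runs of like features on chromosomes 3, 4 and 6. These runs were defined after such features had been seen among those called: at least 12 features of 250 to 420 nt with at most 2 exons, with gaps of at most 2 Mb. All listed features of a run were summed per library, leaving out its most abundant one. The runs of chromosomes 3, 4 and 6 hold 2, 1 and 5 called features, which are part of the sums and counts below. These are therefore no separate support for the calls. Of all tested features of at most 420 nt, 619 of 1139 had a log2 fold change above 0. The run at chr3:16413080-21521912 listed 46 features, of which 41 had a higher mean with indomethacin, 1 a lower mean and 4 no count in the 4 libraries. Its summed level was 12.3 and 16.3 CPM in control and 85.2 and 54.5 CPM with indomethacin. The run at chr6:138631604-143590448 listed 67 features, of which 50 were higher, 11 lower and 6 without a count, and its sums were 16.3 and 19.3 CPM against 79.3 and 66.9 CPM. Both sums were thus over 3 times higher in each indomethacin library than in either control, with log2 ratios of 2.29 and 2.04. The feature left out on chromosome 3 held 51.3% of its run's mean level over the 10 libraries and did not separate the groups, at 1.04 and 9.02 CPM in control and 33.4 and 1.36 CPM with indomethacin. With it, the sums of that run were 13.29 and 25.28 CPM in control and 118.5 and 55.82 CPM with indomethacin, a log2 ratio of 2.18.

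The other 2 runs showed smaller differences. At chr4:100231561-103761881, 30 of 35 features had a higher mean and 4 a lower one, and the sums were 52.0 and 39.1 CPM in control and 73.1 and 55.5 CPM with indomethacin, a log2 ratio of 0.50. The feature left out of that sum held 90.2% of the run's mean level over the 10 libraries, at 280.9 and 301.7 CPM in control and 614.2 and 273.6 CPM with indomethacin. At chr17:43616247-44841382, 7 of 32 had a higher mean and 25 a lower one. The control replicates there stood apart, at 260.5 and 144.2 CPM, around the 175.5 and 195 CPM of the indomethacin libraries, and the log2 ratio of -0.13 became 0.36 without control replicate 1. No test was made on these sums, and near-identical features may share reads.

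**Figure D4:**
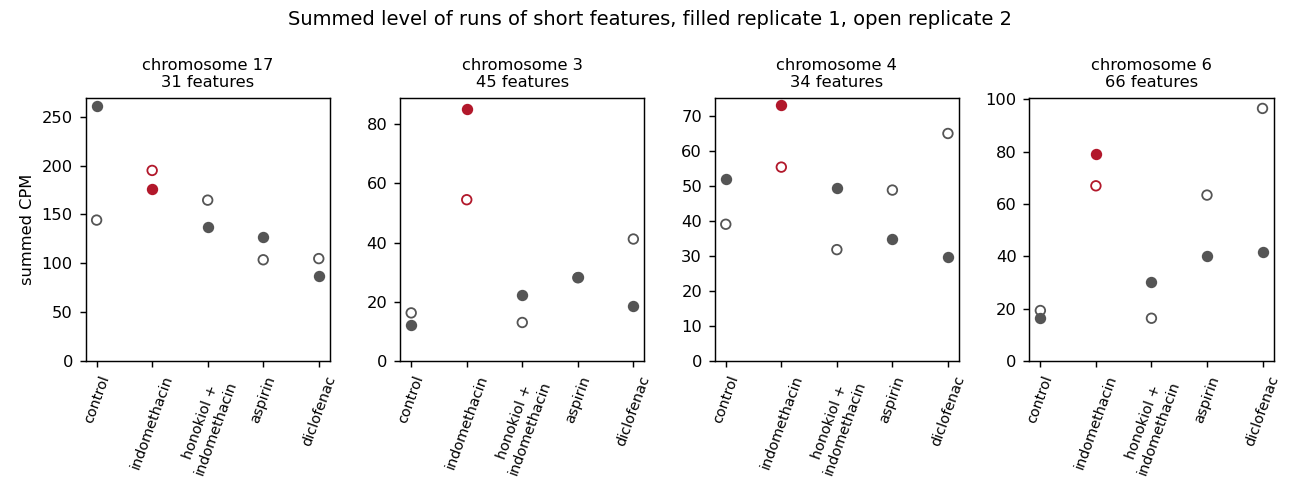
Summed TMM-scaled CPM of each run of short features without its most abundant one (vertical axes, from 0), by group, with replicate 1 filled and replicate 2 open. In the runs of chromosomes 3 and 6 both indomethacin libraries (red) lie over both controls, and in the run of chromosome 17 the controls lie on either side of them.

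Of the 50 features with the highest mean CPM in control, 9 of them mitochondrial, 0 were called by edgeR, against 0.777% of all tested features, so a count of 0 in 50 is near the background. They had log2 fold changes from -0.66 to 2.38 and a median of -0.02. In 4 of the 50 both indomethacin libraries lay above both controls, and in 4 below, against 20.1% and 18.2% of all tested features. These counts carry no test. The largest value, 2.38 ± 0.91 (SE, adjusted p = 0.41), was that of a 7-exon feature at chr14:46523594-46529375, at 590.0 and 1167 CPM in control and 4949 and 4181 CPM with indomethacin.

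That feature was 1 of 11 with an average log2 CPM of 8 or more and a log2 fold change of 2 or more that were not called, a set chosen after the values were seen. They lay on chromosomes 1, 5, 6 and 14, and 8 of them were single exons of 49 nt. The single exons at chr14:46525123-46525171 and chr14:46654573-46654621 lay within the spans of longer features of this set, on the other strand. Such features may share reads, so the 11 may not be separate. The most changed, at chr14:46652302-46652350, stood at 25.4 and 25.0 CPM in control and at 240.6 and 814 CPM with indomethacin (4.39 ± 1.24, adjusted p = 0.26 by edgeR). The diclofenac replicates stood far apart here, at 2616 and 180.1 CPM, while those of aspirin stood at 3769 and 2213 CPM and those of honokiol plus indomethacin at 17.0 and 18.3 CPM. The 3 with more exons included one at chr1:11963836-11968939, with 730.9 and 386.8 CPM in control and 4051 and 6313 CPM with indomethacin, which stood at 62990 and 943.6 CPM in the 2 diclofenac libraries. All 10 libraries share 1 estimate of spread in the fit, so a gap within another group enters the p-values of these features.

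Other large changes also missed the threshold. A feature at chr4:3043231-3047807 (5 exons) had no control count and stood at 3.43 and 7.04 CPM with indomethacin (adjusted p = 0.088 by edgeR). Its fitted log2 fold change of 10.52, which depends on the prior count, was the largest of all tested features. One at chr14:18743685-18745457 stood at 0.0632 and 0.167 CPM in control and at 11.6 and 26.5 CPM with indomethacin (7.34 ± 1.53, adjusted p = 0.14). At chr6:127941526-128080889 (38 exons) the controls stood at 1.33 and 0.501 CPM and the indomethacin libraries at 124.8 and 25.5 CPM (6.35 ± 1.39, adjusted p = 0.16). The largest fitted fall among features at 1 log2 CPM or more was at chr2:209962848-209973205 (9 exons), with 87.0 and 359.3 CPM in control and 7.17 and 6.09 CPM with indomethacin (-5.07 ± 1.496, adjusted p = 0.31). In these 4 features the groups did not overlap, as in the shares of all tested features given above, and the libraries within a group differed by over 2-fold in at least 1 group.

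The levels of the called features in the remaining groups were set beside those with indomethacin. All contrasts share the same 2 control libraries, and the features were picked on 1 of them, so the values are a description. The groups also differ in Y reads: both libraries of honokiol plus indomethacin held them (3393 and 2733 counts), and the aspirin and diclofenac libraries held 0 to 47. The time label was 0.5 h for honokiol plus indomethacin and 4 h for the other drug groups. The part of either difference in the values was not tested. The median log2 fold change of the 123 against control was 2.57 with indomethacin, 2.56 with diclofenac, 2.50 with aspirin and 0.60 with honokiol before indomethacin. The called feature on chromosome 14 from 18860264 stood at 0.0324 and 0.0374 CPM after honokiol plus indomethacin, 1.99 and 6.79 CPM after aspirin and 7.80 and 8.93 CPM after diclofenac. The feature on chromosome 18 from 27657628 stood at 1.30 and 1.53 CPM after honokiol plus indomethacin, close to its control values, and at 25.98 to 59.76 CPM after the other 2 drugs. The falling feature on chromosome 15 stood at 5.67 and 5.31 CPM after honokiol plus indomethacin, above both controls. The falling features on chromosome 17 were at 12.1 and 10.6 CPM and at 8.74 and 7.37 CPM in that group, below both controls. Differences between these groups and indomethacin alone were not tested here.

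A few called features stood at low levels with the other 2 NSAIDs. They were picked after these values were seen and carry no test. The 126-exon feature on chromosome 10, at 2.43 and 1.08 CPM with indomethacin, stood at 0.0368 and 0 CPM after aspirin, 0.0454 and 0.0714 CPM after diclofenac, and 0 in both libraries of honokiol plus indomethacin. The 24-exon feature at chr7:14529482-14574361 stood at 0.379 and 0.234 CPM in control and at 6.11 and 4.29 CPM with indomethacin. It was at 2.56 and 1.46 CPM after honokiol plus indomethacin, 0.331 and 0.0473 CPM after aspirin and 0.159 and 0.238 CPM after diclofenac. The pair of 789-nt features on chromosome 7 had the same order, with 0.777 and 0.374 CPM and with 0.389 and 0.225 CPM after honokiol plus indomethacin, and at most 0.071 CPM in any aspirin or diclofenac library. In these 3 features of chromosome 7 every library given indomethacin, with or without honokiol, lay above every other library. The 126-exon feature and the 789-nt feature from 13881583 passed the low-count filter only because of the libraries of indomethacin alone. Their low levels elsewhere are therefore tied to how they entered the test.

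Several short features, picked in the same way, were also among those raised least by aspirin and diclofenac. A single exon of 288 nt at chr3:18970574-18970861 stood at 0.442 and 0.301 CPM in control, 5.36 and 2.90 CPM with indomethacin, and 0.450 to 0.810 CPM in the 6 other libraries. A 312-nt exon at chr11:86092468-86092779 stood at 3.79 and 2.41 CPM in control and 19.2 and 11.5 CPM with indomethacin, and at 2.88 to 7.67 CPM in the others. A 297-nt exon at chr6:142059736-142060032 went from 0.190 and 0.234 CPM to 3.26 and 6.06 CPM and was at 0.299 to 0.777 CPM elsewhere. In each of these, both indomethacin libraries exceeded the other 8. The runs of chromosomes 3 and 6 were higher than control with the other drugs too, summed without the most abundant feature. On chromosome 6 the sums were 39.96 and 63.38 CPM after aspirin and 41.76 and 96.47 CPM after diclofenac, against 16.29 and 19.3 CPM in control. On chromosome 3 they were 28.48 and 28.12 CPM and 18.67 and 41.19 CPM, against 12.25 and 16.26 CPM.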

How the data were processed

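Per the labels' protocols, ribosomal RNA was removed from total RNA of rat gastric mucosa before stranded library preparation and paired-end sequencing. The authors deposited whole-number counts per feature, 1 column per library laid out as featureCounts writes it, per the file headers, and these were taken as raw counts. The submitters' processing notes name HISAT2 2.1.0, cutadapt 1.16, FastQC 0.11.7, featureCounts, SAMtools, DESeq2 and bcl2fastq. The build, the strand setting and how multi-mapped reads were treated were not given in the sources used here.

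All 10 libraries entered 1 fit in edgeR 4.0.16 (R 4.3.3): TMM factors, default filterByExpr (minimum count 10, minimum total 15), robust quasi-likelihood F test, group as the only term, 5 residual degrees of freedom before moderation, and Benjamini-Hochberg adjustment over the tested features. The standard error is the log2 fold change divided by the square root of F. Within-state differences are of log2 CPM with a prior count of 2. Counting intervals are exact 95% Poisson intervals on counts pooled over the libraries of a group, and they leave out the spread between libraries. Empty lines at the ends of the files held no count. The test was checked on simulated counts.

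Y reads were summed over 7 of the 48 listed Y features, each with a total of 50 counts or more and none in some library, and over 1000 was taken as having them. The comparison, gene lists and tests were chosen with earlier results of these data known. The lists need symbols and could not be applied. Features described in the text were called, averaged 1 log2 CPM or more and had non-overlapping groups: the 15 largest rises and up to 5 largest falls, of which 3 existed. Others were chosen after their values were seen. Alternatives were RLE factors, 2 filters, DESeq2 1.42.0, fewer libraries, a replicate block, a Y-read term, and leaving out feature classes or single libraries.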

Additional observations from a re-analysis of the deposited data

How the results depend on the processing

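Features called higher and lower (123 and 4) numbered 115 and 4 with RLE factors, 736 and 98 without a low-count filter, 119 and 2 with a stricter filter (at least 1 CPM and 10 counts in 2 libraries), 343 and 33 with DESeq2, 252 and 10 in a fit of the 4 libraries alone, 116 and 0 with a Y-read term, 125 and 4 without mitochondrial features, and 124 and 4 without single exons of at most 350 nt. Of the 127, 127 were called without a filter, 126 by DESeq2 and 118 in the 4-library fit. The cause was not tested. Leaving out 1 library at a time gave 1 to 195 higher and 0 to 6 lower. The lowest counts came without control replicate 2, and a group left with 1 library was assumed to spread like the other groups.

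With the replicate number as a block, 122 were higher and 1 lower over all libraries, 103 of them among the 127, and 228 and 4 over the 4 libraries alone. Deviations of same-numbered libraries from their group means correlated at 0.132 between control and indomethacin and at -0.263 to 0.298 between other groups, and the labels tie same-numbered libraries by nothing but the number. In control and indomethacin that number coincides with the Y-read state.

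Over 18 features and 20 alternatives, 292 of 360 fits kept the direction and the call, 68 kept the direction without the call and 0 reversed. The 18 features had been chosen for non-overlapping groups in these same libraries, so their kept direction is a description. With 2 libraries a group, features under 1 CPM in control rest on few control counts.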
